A study of Mus musculus with 8 samples.

Results

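Histone genes were examined in mouse embryonic stem cells from counts of tags at the 3′ ends of polyadenylated RNA. The members were all protein-coding genes whose GENCODE M21 symbol begins with Hist1h, Hist2h, Hist3h, Hist4h, H1f, H2af or H3f, and 82 of the 55421 gene identifiers in the count table met this rule. Of these, 67 are replication-dependent genes (symbols beginning with Hist, called Hist genes here) and 15 are replacement genes (H1f, H2af and H3f). The cells were E14 embryonic stem cells of 129/Ola background, grown in serum with LIF on gelatin, and the design gives biological duplicates. KO cells lacked the miR-290-295 microRNA cluster, and WT cells carried it. siTfap4 cells were KO cells transfected for 36 h with 5 nM of an siPOOL, a pool of small interfering RNAs, against the transcription factor Tfap4. siNeg cells were KO cells given a negative control siPOOL at the same dose and time, so both siPOOL groups also carry the deletion. The untreated set and the siPOOL set were each prepared and sequenced together, apart from each other, and the number of knockout clones is not given in the sources used here.

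Histone mRNAs are of 2 kinds. Those of the replication-dependent genes, which supply the core histones H2A, H2B, H3 and H4 and most linker histone H1 during S phase, usually end without a poly(A) tail. They are cut after a conserved stem-loop that is bound by the stem-loop binding protein Slbp, and most are destroyed when DNA synthesis stops. Replacement histone genes have introns in many cases, make polyadenylated mRNAs throughout the cell cycle and supply variants such as H3.3, H2A.Z and macroH2A. A library primed on poly(A) is therefore meant to record Hist mRNAs as far as they carry a tail, and the Hist values below are not levels of all Hist RNA. They are called levels of polyadenylated Hist RNA here. Where in a transcript the tags lie was not examined, so tags primed at A-rich stretches inside untailed RNA cannot be set apart.

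The stem-loop was found in an annotated transcript of 46 of the 67 Hist genes, of 1 of the 15 replacement genes, and of 54 of 21899 protein-coding genes (0.247%). The search was for a stem of 6 base pairs and a loop of 4 bases, and the sites below are shown because they mark the difference between both kinds of gene and its exception, H2afx. Each site is given 5′ to 3′ from GENCODE M21 transcripts with 5 flanking bases on each side, and capitals mark the stem-loop.
Hist1h1c: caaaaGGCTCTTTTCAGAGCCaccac
Hist1h2ae: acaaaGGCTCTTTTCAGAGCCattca
Hist1h2bf: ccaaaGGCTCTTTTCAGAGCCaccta
Hist2h2ac: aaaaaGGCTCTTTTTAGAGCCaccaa
Hist1h3d: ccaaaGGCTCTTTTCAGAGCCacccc
Hist1h4d: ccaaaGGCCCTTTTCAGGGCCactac
H2afx: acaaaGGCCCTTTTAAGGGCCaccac
On GRCm38 these sites lie at chr13:23739507-23739532 on the plus strand (Hist1h1c), chr13:23570663-23570688 on the minus strand (Hist1h2ae), chr13:23573760-23573785 on the minus strand (Hist1h2bf) and chr3:96220413-96220438 on the minus strand (Hist2h2ac). The site of Hist1h3d lies at chr13:23576239-23576264, that of Hist1h4d at chr13:23581945-23581970 and that of H2afx at chr9:44335235-44335260, all on the plus strand. Each is in the annotated transcript of a gene with 1 exon. The form in Hist1h1c, Hist1h2ae, Hist1h2bf and Hist1h3d was the most common, in 26 members of the H1, H2A, H2B and H3 families and in no H4 gene. The form in Hist1h4d was held by 7 members, all H4 genes, and that of H2afx by no other member.

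What follows the stem-loop differed between members. The annotated transcript ended within 100 bases after it in 23 Hist genes and ran on further in another 23, while 21 Hist genes had no stem-loop in their annotation. Hist1h2bf ran on for 29 bases and Hist2h2ac for 57 bases, against 151 in Hist1h2ae, 752 in Hist1h3d, 770 in Hist1h4d, 840 in Hist1h1c and 822 in H2afx. Several of the 21 genes without a stem-loop have short annotated transcripts, such as 312 bases in Hist1h4k, 393 in Hist1h2ak and 411 in Hist1h3h. Sequence beyond an annotated end was not searched, so these genes may hold a stem-loop that the annotation leaves out. The search for a poly(A) signal has the same limit. A poly(A) signal, AATAAA or ATTAAA on the sense strand, stood in the last 50 bases of an annotated transcript of 17 of 67 Hist genes (25.4%) and of 9 of 15 replacement genes, against 72.2% of all protein-coding genes. Of the Hist genes shown above, Hist1h2ae and Hist1h1c had such a signal, while Hist1h2bf, Hist2h2ac, Hist1h3d and Hist1h4d did not. Hist1h1e and Hist1h2bc, named below among the abundant Hist genes, also had none. Of the Hist genes, 54 lie on chromosome 13, 10 on chromosome 3, 2 on chromosome 11 and 1 on chromosome 6, while the 15 replacement genes are spread over 9 chromosomes.

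The libraries held 8326675 to 12726123 counts, with the lowest depth in both siTfap4 libraries. Levels are given as CPM, counts scaled to the usual CPM unit by the TMM-adjusted library size. They are not divided by gene length because a 3′ end method gives about 1 tag per transcript, which also lets genes be compared. Tfap4, the siPOOL target, was at 12.4 and 15.8 CPM in siTfap4, against 34.4 and 37.4 CPM in siNeg. It was at 49.0 and 42.1 CPM in KO and at 19.7 and 16.4 CPM in WT. The stem cell markers Sox2, Nanog, Esrrb, Zfp42 and Pou5f1 summed to 1635 to 2156 CPM over the 8 libraries. Summed primitive endoderm markers were 6.93 to 8.79 CPM in KO and 48.4 to 57.2 CPM in WT, and summed fibroblast markers 10.2 to 20.2 CPM in KO and 29.0 to 50.01 CPM in WT. Of the tested markers, 3 of 5 for endoderm (Dab2, Gata6 and Sox17) and 2 of 2 for fibroblasts (Thy1 and Col1a1) were called lower in KO, 1 of 2 neural markers (Pax6) was called higher and the 1 trophectoderm marker was not called. The Col1a1 call (edgeR adjusted p = 0.0432) was lost without any 1 of the 4 untreated libraries (0.131 to 0.241), with DESeq2 (0.223), with limma-voom (0.085) and with no filter on low counts (0.0525). The Thy1 call (edgeR adjusted p = 0.0244) was lost without KO replicate 1 (0.285) or WT replicate 2 (0.257) and with the untreated libraries fitted alone (0.0561). The part of these cells in the KO and WT histone values was not tested. Defining markers of the male germ line, whose cells use testis histones, were at 0 in every library (Prm1) or detected in 1 library (Tnp1), while Ddx4 had 2.3 to 13.1 CPM.

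Replacement genes held most histone counts in every library. Hist genes made up 6.53% and 6.58% of histone counts in KO and 7.44% and 10.9% in WT. They made up 14.6% and 12.8% in siTfap4 and 8.42% and 8.28% in siNeg. All histone genes together were 0.185% to 0.262% of the counts of a library. Of the 82 members, 9 had no count in any library, 4 Hist genes and 5 replacement genes. The 5 replacement genes are all known from the germ line (H1foo, H1fnt and H2afb1 to H2afb3). The 4 Hist genes were Hist1h2bq, Hist2h2aa1, Hist2h2aa2 and Hist2h3c1. All of the sequence compared near their 3′ ends is shared with other genes (100% in each). Their tags could have been split or dropped in the authors' counting, so the lack of counts does not show that their RNA was absent. A further 17 Hist genes were detected but did not pass the filter on low counts, which left 46 Hist and 10 replacement genes among the 15137 tested. The filter took no account of group labels beyond their size, yet a member can pass through 1 high group, so the members that passed do not stand for all members.

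The replacement genes fell into 3 ranges of level. H3f3b (H3.3), H2afv and H2afz (the pair of H2A.Z genes), H2afy (macroH2A1) and H2afx (H2A.X, the form phosphorylated at DNA breaks) averaged 323 to 397 CPM over the 8 libraries. The order among these 5 is not firm, since each overlaps with its neighbours from library to library. H2afj, H1f0 (a linker histone of resting and differentiated cells), H1fx and H3f3a averaged 45.2 to 57.2 CPM, and H2afy2 (macroH2A2) averaged 6.36 CPM. H3f3a and H3f3b code for the same H3.3 protein, and H3f3b gave most of the tags in every library.

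**Figure D1:**
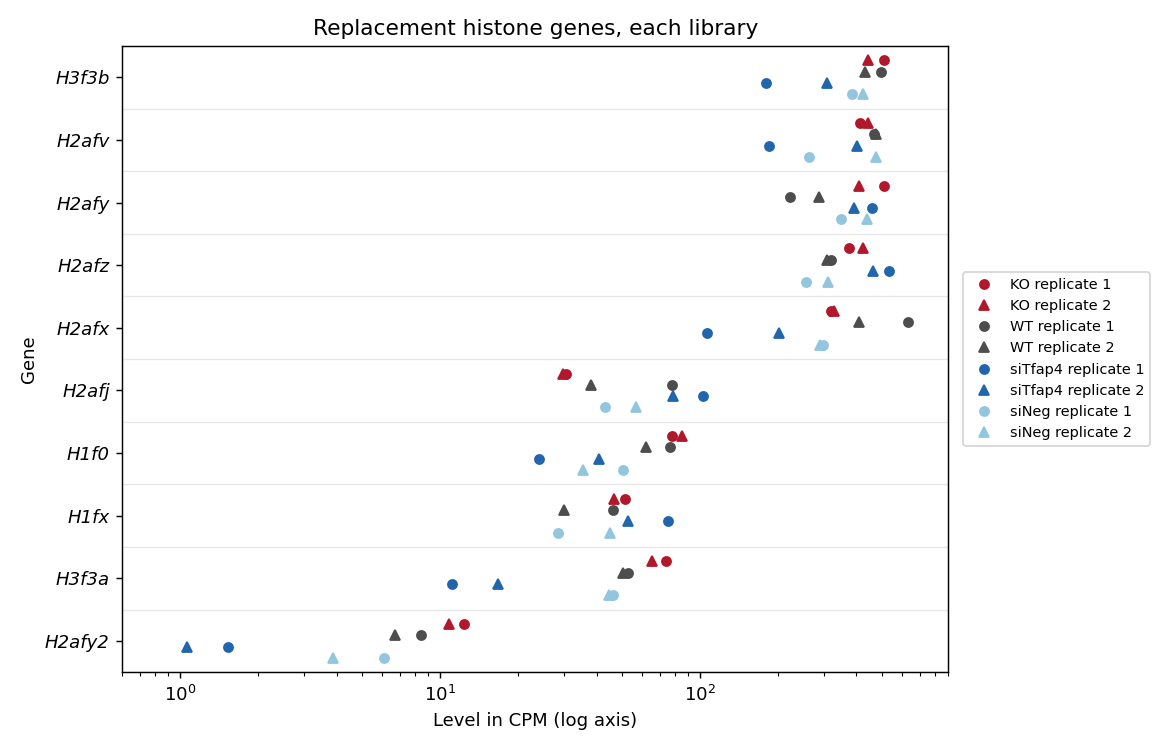
Level of each detected replacement histone gene in CPM (log axis) in every library, with colours for groups and symbols for replicates. H3f3a was at 11.1 and 16.7 CPM in siTfap4, below every other library, and H2afy lay higher in both KO libraries than in either WT library.

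Among Hist genes only 5 averaged over 10 CPM. These were the linker histone genes Hist1h1e (33.7 CPM) and Hist1h1c (21.3 CPM), the H3 gene Hist1h3d (15.98 CPM), the H2B gene Hist1h2bc (15.0 CPM) and the H2A gene Hist1h2ae (13.3 CPM). The median Hist gene had 1.20 CPM. Of these 5, 4 belong to the 23 genes whose annotation runs on beyond the stem-loop, and Hist1h2bc has no stem-loop in its annotated transcripts. None of the 23 genes that end at the stem-loop averaged over 10 CPM, and the highest of them was Hist1h2ag with 8.25 CPM. This holds for the most abundant genes only. The median gene had 1.34 CPM in this class, 1.23 CPM among genes running on beyond the stem-loop and 0.949 CPM among those without an annotated one. Levels of Hist1h1e are uncertain, because its last exon overlaps annotated exons of Hist1h2be and Gm11398 on the same strand and shares all of its 31-base words there. Over 50% of such words near the 3′ end were shared with another gene in 31 Hist genes, whose tags the authors' counting could have split or dropped.

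**Figure D2:**
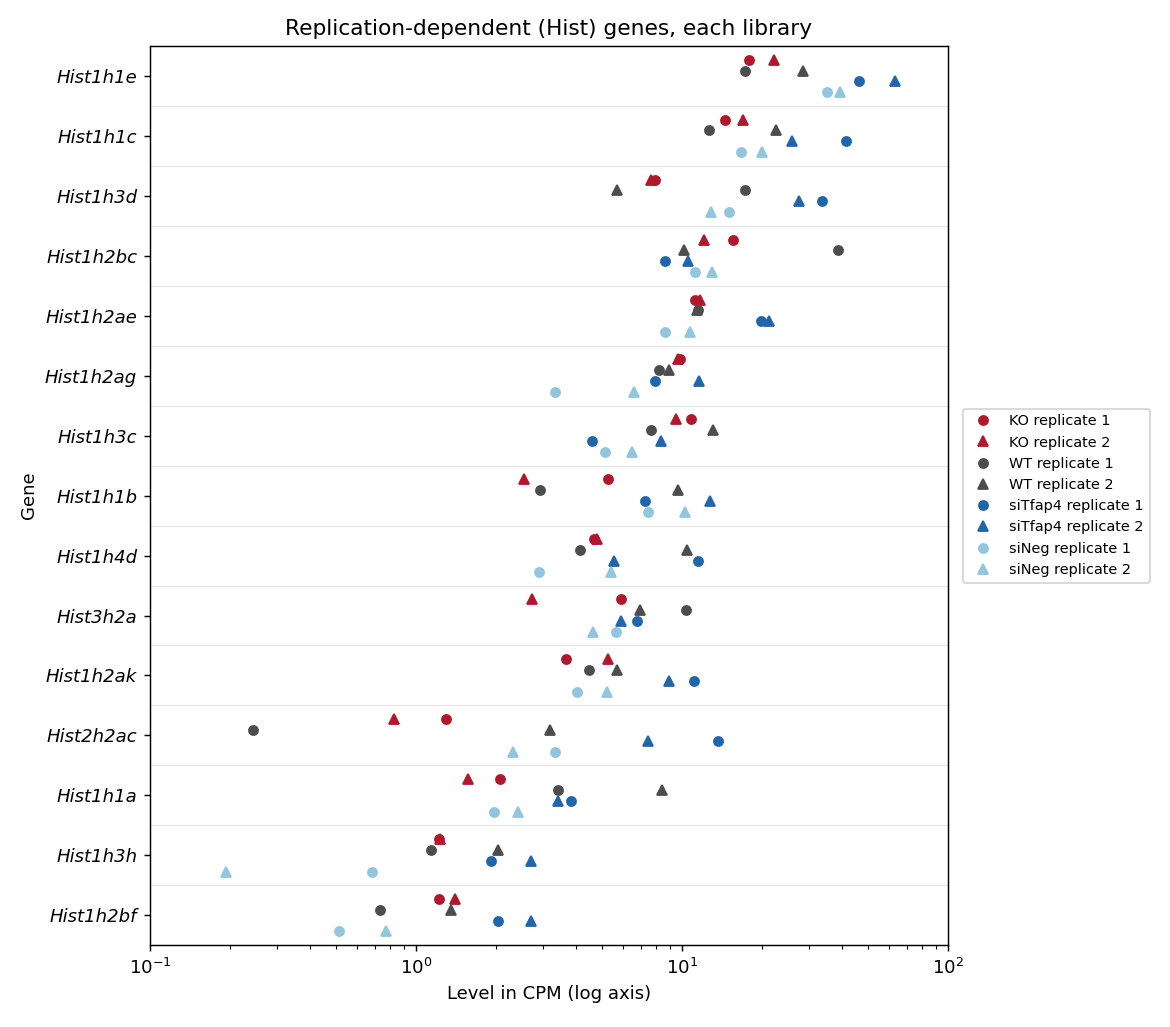
Level in CPM (log axis) of the 10 most abundant Hist genes and of the Hist genes past the threshold in a comparison, in every library. Hist1h2ae and Hist1h2ak were higher in both siTfap4 libraries than in any other library, and WT replicates 1 and 2 differed for Hist1h2bc, Hist1h3d and Hist2h2ac.

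Knockdown of Tfap4 by siPOOL in KO cells was tested against the control siPOOL with edgeR's quasi-likelihood test, with p-values adjusted by Benjamini and Hochberg over all 15137 genes and called under 0.05. In this comparison 2334 genes were called (15.4%), of which 660 were higher (4.36%) and 1674 lower (11.1%) in siTfap4. Of the 10 tested replacement genes 1 was higher and 3 were lower, and of the 46 tested Hist genes 5 were higher and 0 lower. That is 9 of 56 members in either direction, a share close to that of all genes. By sign, 41 of 46 Hist genes had a log2 fold change above 0 with a median of 0.74, 6 of 10 replacement genes lay below 0 with a median of -0.37, and 7634 of all 15137 genes lay above 0 with a median of 0.01. These counts and medians describe the members, and the difference in direction between both kinds was not tested.

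H3f3a (ENSMUSG00000060743, chr1:180800832-180813943, minus strand) fell. It had 11.1 and 16.7 CPM in siTfap4, against 46.3 and 44.5 CPM in siNeg. The groups did not overlap, and untreated KO (74.3 and 65.7 CPM) and WT (52.7 and 50.4 CPM) libraries were higher still. The log2 fold change was -1.70 (SE 0.27, edgeR adjusted p = 0.00062), and it remained called under every alternative, including each library left out in turn. Antisense transcripts H3f3aos and Gm17275 overlap its exons, and the strand setting of the authors' counting is not given in the sources used here.

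H3f3b, the more abundant H3.3 gene, had 178.9 and 307.4 CPM in siTfap4, against 386.1 and 423.4 CPM in siNeg. Both siTfap4 libraries lay below both siNeg libraries, but the difference missed the threshold (log2 fold change -0.73, SE 0.26, edgeR adjusted p = 0.0641). It passed when siTfap4 replicate 2 was left out (adjusted p = 0.00654) and with a correction for base composition (adjusted p = 0.0191), as well as with DESeq2 (0.0494), limma-voom (0.0457) and no filter on low counts (0.039).

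H2afy2 and H2afx were the other replacement genes that fell. H2afy2, the rarer macroH2A gene, had 1.53 and 1.06 CPM in siTfap4 (12 and 9 counts), against 6.08 and 3.87 CPM in siNeg (log2 fold change -1.95, SE 0.50, edgeR adjusted p = 0.0156). Its call was lost without siTfap4 replicate 1 (0.106), siTfap4 replicate 2 (0.0816) or siNeg replicate 1 (0.139) and with the correction for base composition (0.0649), all given as adjusted p. The gene overlaps Aifm2 on the other strand. H2afx had 106.9 and 201.9 CPM in siTfap4, against 297.6 and 288.9 CPM in siNeg (log2 fold change -0.92, SE 0.29, edgeR adjusted p = 0.0397). It was not called without siTfap4 replicate 1 (0.347), siNeg replicate 1 (0.162) or siNeg replicate 2 (0.0933), nor with the correction for base composition (0.133) or the siPOOL libraries fitted alone (0.0501). H2afx is the replacement gene with the stem-loop shown above, and Gm44335 overlaps its exons on the other strand. The same limit holds for H2afy, H2afj, H1f0, H1fx, Hist1h2ae, Hist1h2ag, Hist1h2ak, Hist2h2ac and Hist3h2a. The exons of each of these also overlap an annotated gene on the other strand. In addition, H1fx overlaps Gm47286 and Hist3h2a overlaps Trim17 on the same strand, where tags can be ambiguous under any strand setting.

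H2afz (ENSMUSG00000037894, chr3:137864487-137866922, plus strand) was the replacement gene that rose. It had 533.6 and 464.0 CPM in siTfap4, against 255.9 and 312.2 CPM in siNeg, with no overlap (log2 fold change 0.81, SE 0.22, edgeR adjusted p = 0.0229). The call was lost without siTfap4 replicate 1 (0.145) or siNeg replicate 1 (0.146) and when the siPOOL libraries were fitted alone (0.0901). Its paralogue H2afv had 184.5 and 402.4 CPM in siTfap4, against 261.8 and 474.9 CPM in siNeg, and these groups overlapped (log2 fold change -0.33, SE 0.33, edgeR adjusted p = 0.534). Without siTfap4 replicate 2, H2afv was called lower (adjusted p = 0.0436). The difference between the H2A.Z genes was not tested.

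The remaining replacement genes were not called. H2afj had 103.1 and 78.7 CPM in siTfap4, against 43.0 and 56.5 CPM in siNeg (edgeR adjusted p = 0.0625, and 0.0458 by DESeq2). H1fx had 75.3 and 52.8 CPM in siTfap4, against 28.4 and 44.9 CPM in siNeg (edgeR adjusted p = 0.073), and it was called higher without siTfap4 replicate 2 (0.0423) or siNeg replicate 2 (0.0479). For both genes, the siTfap4 libraries lay above the siNeg libraries. H2afy and H1f0 had log2 fold changes of 0.12 and -0.41, with overlapping groups.

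Summed over all 67 Hist genes, polyadenylated Hist RNA was 287.3 and 287.7 CPM in siTfap4, against 158.5 and 191.6 CPM in siNeg. The log2 ratio of the means was 0.72, and it ranged from 0.59 to 0.86 when 1 library was left out. Summed replacement levels were 1678 and 1959 CPM in siTfap4, against 1724 and 2123 CPM in siNeg, with a log2 ratio of -0.08. By family, H2A genes had the largest ratio (75.6 and 67.5 CPM in siTfap4, against 31.4 and 37.1 CPM in siNeg, log2 ratio 1.06) and H2B genes the smallest (24.8 and 37.4 CPM in siTfap4, against 22.8 and 29.0 CPM in siNeg, log2 ratio 0.26). The H2B groups overlapped. In bulk RNA primed on poly(A), changes in the number of cells in S phase, in RNA per cell and in the share of Hist RNA with a tail cannot be told apart.

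**Figure D3:**
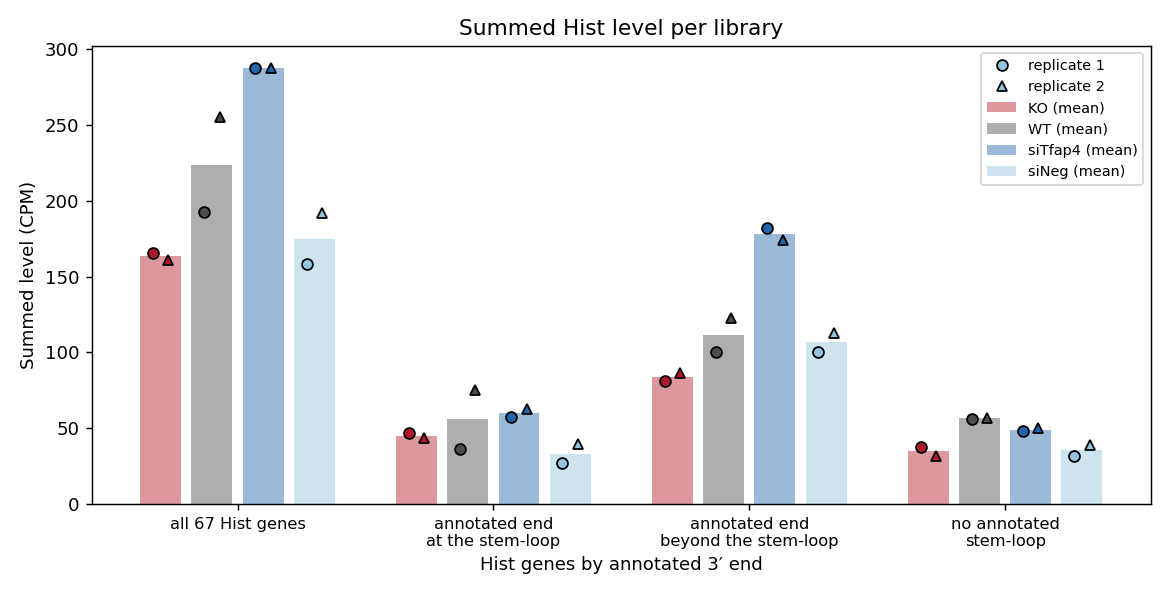
Summed level in CPM of all 67 Hist genes and of the 3 classes of annotated 3′ end, with bars for group means and points for the 2 libraries of a group. The siTfap4 libraries lay above the siNeg libraries in all 3 classes, and WT replicate 2 had 75.5 CPM against 36.3 CPM in WT replicate 1 for genes that end at the stem-loop.

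The summed level was higher in siTfap4 in each class of annotated end. Genes ending at the stem-loop summed to 57.3 and 63.0 CPM in siTfap4, against 26.8 and 39.4 CPM in siNeg, and all 16 tested genes of this class had a log2 fold change above 0. Genes running on beyond it summed to 182.1 and 174.3 CPM in siTfap4, against 100.2 and 113.0 CPM in siNeg, with 16 of 19 tested genes above 0. Genes with no annotated stem-loop summed to 47.9 and 50.4 CPM in siTfap4, against 31.4 and 39.2 CPM in siNeg, with 9 of 11 above 0. The groups did not overlap in any class. The classes come from the same libraries with the same scaling, so they are not separate evidence. Groups of 2 libraries can lie apart without any change, and the share of all genes that do so is not given here.

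The best measured of the Hist genes called higher was Hist1h2ae (ENSMUSG00000069272, chr13:23570517-23571220, minus strand), an H2A gene. It had 19.7 and 21.2 CPM in siTfap4, against 8.65 and 10.7 CPM in siNeg (log2 fold change 1.08, SE 0.29, edgeR adjusted p = 0.0198). All 4 untreated libraries lay between 11.2 and 11.7 CPM. The call was lost without siTfap4 replicate 1 (0.091), siTfap4 replicate 2 (0.0514) or siNeg replicate 1 (0.146). It was kept with the correction for base composition.

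The other 4 called Hist genes were rarer. Hist2h2ac, an H2A gene, had 13.6 and 7.43 CPM in siTfap4, against 3.34 and 2.32 CPM in siNeg (log2 fold change 1.87, SE 0.56, edgeR adjusted p = 0.0361). Hist1h2ak, also an H2A gene, had 11.1 and 8.96 CPM in siTfap4, against 4.03 and 5.23 CPM in siNeg (log2 fold change 1.12, SE 0.37, edgeR adjusted p = 0.0495). Hist1h2bf and Hist1h3h, an H2B and an H3 gene, rested on few counts. Hist1h2bf had 16 and 23 counts in siTfap4, against 6 and 8 in siNeg (log2 fold change 1.88, SE 0.61, edgeR adjusted p = 0.0459). Hist1h3h had 15 and 23 counts in siTfap4, against 8 and 2 in siNeg (log2 fold change 2.33, SE 0.68, edgeR adjusted p = 0.0304). Hist1h2ak, Hist1h2bf and Hist1h3h share 66.5%, 62.4% and 87.1% of their 3′ words with other genes. All 4 calls were lost with the correction for base composition (adjusted p 0.0901 to 0.279), which was taken from annotated transcript ends. Hist1h2ak, Hist1h2bf and Hist1h3h were each lost without any 1 of the 4 siPOOL libraries, with adjusted p up to 0.299, 0.253 and 0.155. Hist1h2ak and Hist1h2bf were also lost with library totals in place of TMM (0.0637 and 0.0553), limma-voom (0.0557 and 0.0653), no filter on low counts (0.0677 and 0.0665) and the siPOOL libraries fitted alone (0.0782 and 0.058). Hist2h2ac was lost without siTfap4 replicate 1 (0.321), siNeg replicate 1 (0.151) or siNeg replicate 2 (0.165) and with no filter on low counts (0.0627).

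Abundant Hist genes near the threshold lay on the same side. Hist1h3d had 33.6 and 27.6 CPM in siTfap4, against 15.1 and 12.9 CPM in siNeg (log2 fold change 1.13, edgeR adjusted p = 0.0508), and was called by DESeq2 (0.0343), by limma-voom (0.0497), with no filter on low counts (0.0479) and with the siPOOL libraries fitted alone (0.0275). Hist1h1c had 41.5 and 25.8 CPM in siTfap4, against 16.6 and 20.04 CPM in siNeg (log2 fold change 0.88, edgeR adjusted p = 0.073), and was called with the correction for base composition (0.0365) or without siTfap4 replicate 2 (0.0316). Neither gene had overlapping groups. Hist1h1e had 46.2 and 63.3 CPM in siTfap4, against 35.2 and 39.2 CPM in siNeg (edgeR adjusted p = 0.192). Hist1h2bc went the other way, with 8.66 and 10.5 CPM in siTfap4, against 11.2 and 12.97 CPM in siNeg (edgeR adjusted p = 0.681). Hist1h2ag, Hist1h4d, Hist3h2a, Hist1h1b and Hist1h3c had log2 fold changes of 0.99, 1.03, 0.29, 0.19 and 0.17, with adjusted p from 0.0889 to 0.83. Hist1h2ag was called without siNeg replicate 2 (0.0439).

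**Figure D4:**
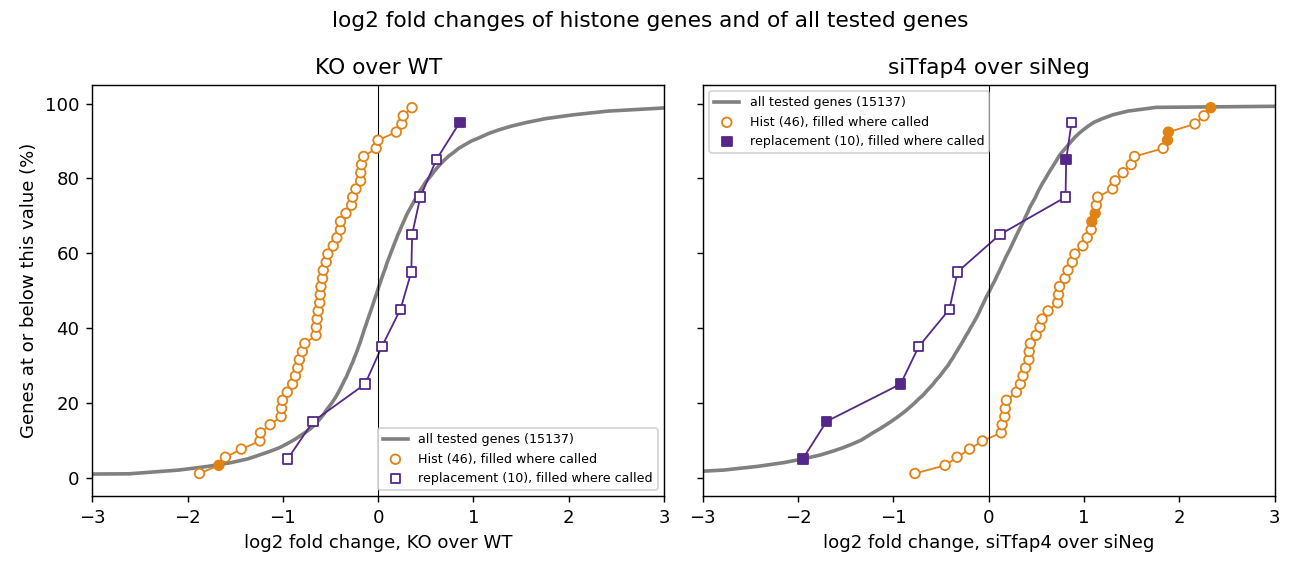
Cumulative share of genes (%) against log2 fold change for 46 Hist genes, 10 replacement genes and all 15137 tested genes, for KO over WT and for siTfap4 over siNeg, with filled symbols for called genes and the axis limited to 3 on either side. The Hist genes lie right of all genes in siTfap4 over siNeg (median 0.74 against 0.01) and left of them in KO over WT (median -0.60 against -0.01, but 0.21 without WT replicate 2).

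Base composition moved with these results. The last 100 bases of the transcript held a median of 43.5% G and C in tested Hist genes and 35.0% in tested replacement genes, against 37.0% in all tested genes. After the fold changes were corrected for it, 39 of 46 Hist genes lay above 0 in siTfap4 over siNeg with a median of 0.49, and 2 were called higher, Hist1h2ae and Hist1h1c. This correction follows a smooth trend over all genes, so it removes any shared change that goes with base composition. It also depends on the annotated end. The share was 68% in Hist1h2ak and 63% in Hist1h3h, whose annotated transcripts have only 393 and 411 bases. If their RNA runs on further, the correction used other bases than those near the tags, and so would the Hist median.

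Deletion of miR-290-295 was tested as KO against WT in the same fit. Here 1506 of 15137 genes were called (9.95%), 907 higher (5.99%) and 599 lower (3.96%) in KO. Of the 46 Hist genes 0 were higher and 1 was lower, and of the 10 replacement genes 1 was higher and 0 lower. At an unadjusted p under 0.05, 4 Hist genes and 3 replacement genes passed, against 3530 of all genes. Unadjusted p-values under 0.05 included those of the H4 gene Hist2h4 (0.00692) and of Hist3h2a (0.021), whose adjusted p were 0.0625 and 0.125.

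H2afy (ENSMUSG00000015937, chr13:56073619-56136361, minus strand), which codes for macroH2A1, a variant enriched on the inactive X chromosome and at silenced genes, rose. It had 509.8 and 409.3 CPM in KO, against 221.9 and 285.9 CPM in WT (log2 fold change 0.86, SE 0.24, edgeR adjusted p = 0.0315). The groups did not overlap, and the siPOOL libraries of the same KO genotype had 348.0 to 459.7 CPM. The call was lost without any 1 of the 4 untreated libraries (adjusted p 0.0659 to 0.302) and with the correction for base composition (0.0531). H2afy2, the other macroH2A gene, had 12.4 and 10.8 CPM in KO, against 8.45 and 6.69 CPM in WT (log2 fold change 0.61, edgeR adjusted p = 0.291).

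Hist1h1a, a linker histone gene, fell. It had 2.06 and 1.57 CPM in KO (27 and 19 counts), against 3.41 and 8.43 CPM in WT (42 and 87 counts), with a log2 fold change of -1.67 (SE 0.48, edgeR adjusted p = 0.0352). The WT duplicates differed more from each other than WT replicate 1 did from the KO libraries. The call was lost on leaving out WT replicate 2 (0.396) or 1 of the KO libraries (0.118 and 0.212), with limma-voom (0.0755) and when the untreated libraries were fitted alone (0.0683).

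H2afj and H2afx were lower in both KO libraries without a call. H2afj had 30.5 and 29.6 CPM in KO, against 77.8 and 38.1 CPM in WT (log2 fold change -0.95, edgeR adjusted p = 0.0617), and it was called lower by DESeq2 (0.0452), with no filter on low counts (0.0432) and without WT replicate 2 (0.0131). H2afx had 319.8 and 327.5 CPM in KO, against 629.5 and 408.9 CPM in WT (edgeR adjusted p = 0.152). The KO duplicates lay close together for both genes and the WT duplicates did not. H3f3a and H3f3b had log2 fold changes of 0.44 and 0.04, and H2afz and H2afv of 0.35 and -0.14, with adjusted p of 0.305 or more.

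For the Hist genes as a whole the sign by gene rested on 1 WT library, while their sum stayed lower in KO without it. Their sum was 165.7 and 161.0 CPM in KO, against 192.7 and 255.0 CPM in WT (log2 ratio -0.45). Their log2 fold changes lay below 0 in 42 of 46 genes with a median of -0.60, against 7644 of all 15137 genes with a median of -0.01. Without WT replicate 2, the log2 ratio of the sums was -0.24, and 15 of 46 genes lay below 0 with a median of 0.21. Leaving out any other untreated library left 39 to 42 genes below 0. Hist1h2bc, with 15.6 and 12.1 CPM in KO, against 38.7 and 10.2 CPM in WT (edgeR adjusted p = 0.285), was called lower without WT replicate 2 (0.0137). The replacement sums were 2371 and 2285 CPM in KO, against 2396 and 2095 CPM in WT (log2 ratio 0.05).

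**Figure D5:**
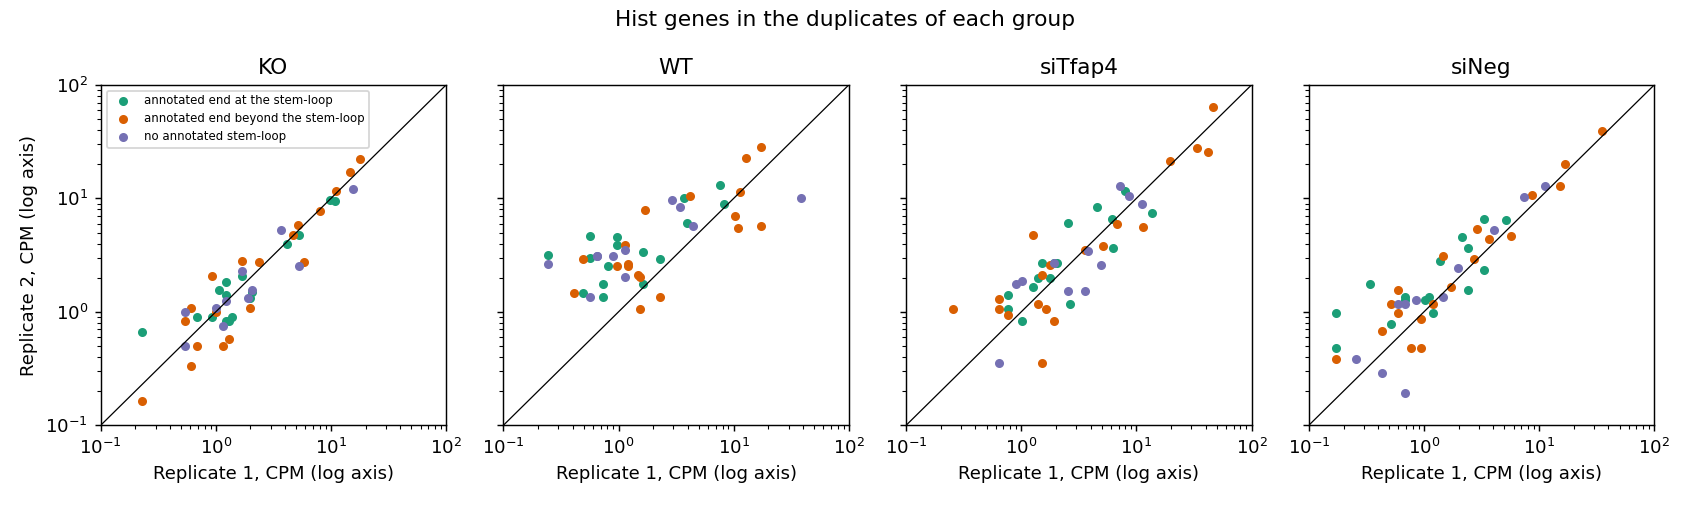
Level of each Hist gene in replicate 2 against replicate 1 of its group (CPM, log axes), coloured by annotated 3′ end, with a line of equality; genes at 0 in either library are not drawn. In WT most genes lie above the line, with 38 of 45 genes higher in replicate 2, while the KO genes lie along it.

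The WT duplicates differed across Hist genes. Among the 45 Hist genes with 20 or more counts in the pair, 38 were higher in WT replicate 2, 25 of them by 2-fold or more, with a median log2 difference of 1.12. Over all genes, 7049 of 13882 were higher in that library, with a median of 0.01. In KO 18 of 39 Hist genes were higher in replicate 2, against 7025 of 14008 of all genes. In siTfap4 the count was 20 of 37, against 6235 of 13007 of all genes. The siNeg duplicates also differed, with 24 of 33 Hist genes higher in replicate 2, against 6506 of 13698 of all genes. Their median log2 difference was 0.28 over Hist genes and -0.03 over all genes. Genes that end at the stem-loop summed to 36.3 CPM in WT replicate 1 and 75.5 CPM in WT replicate 2, a ratio of 2.08, and linker histone genes to 38.0 and 76.9 CPM. Hist1h2bc (476 and 105 counts), Hist1h3d (213 and 59 counts) and the replacement gene H2afx (7746 and 4219 counts) went the other way. The WT libraries carry different suffixes in their labels, and so do the KO libraries. KO replicate 2 and WT replicate 1 share the suffix CC, while WT replicate 2 alone has a date-like suffix. The meaning of the suffixes is not given in the sources used here, and the part of any such difference in the result was not tested.

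Genes that act on histones were read from 5 lists. For comparison, 4.36% of all tested genes were called higher and 11.1% lower in siTfap4 against siNeg. The first list holds 19 genes for the 3′ processing and turnover of histone mRNA. In siTfap4 1 of these was higher and 2 were lower, among them Lsm1, a subunit of the ring that starts mRNA decay, with 4.08 and 12.3 CPM in siTfap4, against 28.8 and 32.2 CPM in siNeg (log2 fold change -1.89, edgeR adjusted p = 0.00249). Zfp473, a zinc finger protein of the U7 processing machinery, had a log2 fold change of -1.10 (edgeR adjusted p = 0.0254), and Upf1, a helicase needed for histone mRNA decay, of 0.80 (edgeR adjusted p = 0.0402). Upf1 was also lost with library totals in place of TMM (0.0627) and with the siPOOL libraries fitted alone (0.0968). The Zfp473 and Upf1 calls were lost with the correction for base composition (0.0858 and 0.112) and without siTfap4 replicate 1 (0.221 and 0.388), siNeg replicate 1 (0.129 and 0.0772) or siNeg replicate 2 (0.0506 and 0.189). In KO against WT none of the 19 was called, and the most abundant, Srrt, had a log2 fold change of -0.04. Slbp, named after its values were seen, had 12.6 and 13.03 CPM in KO, against 21.05 and 23.3 CPM in WT (log2 fold change -0.79, edgeR adjusted p = 0.0804), and 14.5 and 15.0 CPM in siTfap4, against 11.8 and 14.5 CPM in siNeg.

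Chaperones gave few calls. Of 7 genes that deposit H3 and H4 with replication, 2 were lower in siTfap4. Rbbp7, a histone-binding subunit of several chromatin complexes, had 91.99 and 180.6 CPM in siTfap4, against 350.4 and 329.7 CPM in siNeg (log2 fold change -1.32, edgeR adjusted p = 0.00551), and was not called without siTfap4 replicate 1 (0.0703). Asf1b, a chaperone of H3 and H4, had a log2 fold change of -0.87 (edgeR adjusted p = 0.0448), lost without siTfap4 replicate 1 (0.353), siNeg replicate 1 (0.142) or siNeg replicate 2 (0.115), with the correction for base composition (0.169) and with the siPOOL libraries fitted alone (0.0646). None of the 6 genes that deposit H3.3 was called in either comparison, and Atrx, the most abundant of them, had log2 fold changes of 0.21 in siTfap4 over siNeg and 0.17 in KO over WT. Of 10 genes that exchange H2A.Z or H2A and H2B, Znhit1, a subunit of the remodeller that loads H2A.Z, was higher in siTfap4 (log2 fold change 0.97, edgeR adjusted p = 0.0264), and this was lost without siTfap4 replicate 1 (0.26) or siNeg replicate 1 (0.202), with the correction for base composition (0.228) and with the siPOOL libraries fitted alone (0.0501). No gene of these 3 lists was called in KO against WT, where Nasp, the most abundant chaperone of H3 and H4 in its list, had a log2 fold change of -0.39 and Nap1l1, the most abundant of the H2A and H2B list, of 0.45.

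Genes of S phase were more often lower than higher in siTfap4. Of 17 such genes, 2 were higher (Ccne2 and E2f1) and 7 lower, against 4.36% higher and 11.1% lower among all tested genes. Their median log2 fold change was -0.46, against 0.01 for all genes. Mcm4, a subunit of the replicative helicase, had 39.9 and 33.5 CPM in siTfap4, against 249.2 and 165.5 CPM in siNeg (log2 fold change -2.50, edgeR adjusted p = 4.1e-05). Rrm2, the small subunit of ribonucleotide reductase, had 31.7 and 71.5 CPM in siTfap4, against 210.3 and 190.5 CPM in siNeg (log2 fold change -1.96, edgeR adjusted p = 0.000513). Both remained called under every alternative, as did Cdk2, Gmnn and Mcm6. Pcna (edgeR adjusted p = 0.0266) and Ccna2 (0.027) were lost without siTfap4 replicate 1 (0.239 and 0.269), siNeg replicate 1 (0.102 and 0.144) or siNeg replicate 2 (0.0983 and 0.056), and Ccna2 also with the correction for base composition (0.0773). Ccne2 (edgeR adjusted p = 0.034) was lost without siTfap4 replicate 1 (0.178), siNeg replicate 1 (0.138) or siNeg replicate 2 (0.0983), with library totals in place of TMM (0.0514), with no filter on low counts (0.0622) and with the siPOOL libraries fitted alone (0.0895). E2f1 (edgeR adjusted p = 0.0248) was lost without siTfap4 replicate 1 (0.257) or siNeg replicate 1 (0.184), with the correction for base composition (0.101) and with the siPOOL libraries fitted alone (0.0662). In KO against WT none of the 17 was called, with a median log2 fold change of 0.01, and the most abundant, Mcm3, had 0.04. Of the stem cell markers, Nanog was lower in siTfap4 (log2 fold change -1.49, edgeR adjusted p = 0.00403, and 0.0577 without siNeg replicate 1) and Pou5f1 higher (1.02, edgeR adjusted p = 0.0121, 0.114 without siTfap4 replicate 1, 0.0934 without siNeg replicate 1 and 0.0737 with the correction for base composition), and the part of either in the histone values was not tested.

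Promoter motifs were counted in both kinds of gene. RefSeq promoters (GRCm38.p6, 250 bases before to 50 after the start) matched 76 of the 82 members. Shares are of genes, and a gene with several promoters counted where any of them held the motif. CCAAT, searched on both strands, was present for 53 of 62 Hist genes (85.5%) and 10 of 14 replacement genes (71.4%), against 41.1% of all 27025 genes with a promoter. TATAAA, on both strands, was present for 35 of 62 Hist genes (56.5%) and 1 of 14 replacement genes (7.1%), against 15.7% of all. The E-box CAGCTG, the core form bound by TFAP4, reads the same on both strands. It was present for 7 of 62 Hist genes (11.3%) and 1 of 14 replacement genes (7.1%), against 18.3% of all. None of the 8 members called in siTfap4 against siNeg that had a promoter in the table held these letters in this window. The H3.3 pair is shown here, 30 bases up to the start, because its members code for 1 protein from unlike promoters, with CCAAT or its reverse complement and TATAAA in capitals.
H3f3a: tgtgtgATTGGctggagcgcggcgcggggc
H3f3b: ctcTATAAAtatggaggcgtcggggggctt
These lie at chr1:180813606-180813635 (H3f3a) and chr11:116024505-116024534 (H3f3b), both on the minus strand. Over the 250 bases before the start, H3f3b held 4 CCAAT matches and 1 TATAAA match, and H3f3a held 1 CCAAT match and 0 TATAAA matches.

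Levels in the siPOOL set and in the untreated set are given side by side, since siPOOL treatment and the preparation of the set cannot be told apart. The control siPOOL libraries had Hist sums of 158.5 and 191.6 CPM and untreated KO libraries of 165.7 and 161.0 CPM. Linker histone genes summed to 64.0 and 74.8 CPM in siNeg, against 42.3 and 46.1 CPM in KO. Replacement genes summed to 1724 and 2123 CPM in siNeg, against 2371 and 2285 CPM in KO. H1f0 had 50.6 and 35.6 CPM in siNeg, against 77.8 and 84.95 CPM in KO, and H3f3a 46.3 and 44.5 CPM in siNeg, against 74.3 and 65.7 CPM in KO.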

How the data were processed

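Libraries were made with the QuantSeq 3′ mRNA-Seq FWD kit from 500 ng RNA, per the labels' protocols, in duplicate for KO, WT, siTfap4 and siNeg cells. The deposited table holds the authors' raw counts per Ensembl gene. Trim Galore and GRCm38 are named per the submitters' processing notes; neither aligner nor counter, strand setting or annotation release is named in the sources used here. Of 55421 identifiers 55154 matched GENCODE M21. Counts were fitted in R 4.3.3 with edgeR 4.0.16 (filterByExpr, TMM, robust glmQLFit and glmQLFTest) over all 8 libraries with 4 group means, which share 1 spread estimate with 4 residual degrees of freedom, and Benjamini-Hochberg adjusted p under 0.05 was called. P-values rest on each gene's spread between these duplicates, moderated towards the trend over all genes. They therefore draw on more than these 4 residual degrees of freedom. Contrasts stayed within a preparation set. CPM are counts scaled by TMM-adjusted totals, and sums over members have no p. The scripts were tested on simulated data.

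Duplicates differed beyond sampling noise (chi-square per degree of freedom 12.5 to 42.2). This cannot show that they are independent, since libraries from 1 culture can also differ beyond it. Each library was counted as a sample because the design gives biological duplicates. Same-numbered libraries of both groups deviated together with r = -0.06 (untreated) and 0.13 (siPOOL) over 15137 genes, so the numbers were not taken to pair them. Alternatives were DESeq2 1.42.0, limma-voom (limma 3.58.1), library totals, no filter, each set alone, a threshold of 0.1, a lowess correction for GC content of the last 100 transcript bases (span 0.3), a replicate block and each library left out; in those last fits a lone library is assumed to vary like the other groups. Words of 31 bases in the last 200 transcript bases measured sequence shared with other genes. Members and lists were chosen with earlier results of these data known. Named were all called members, the 10 most abundant Hist genes, replacement genes over 10 CPM, and of each list up to 2 called genes per comparison or else the most abundant; Hist2h4, Slbp, Upf1, Cdk2, Gmnn, Mcm6, Pcna, Ccna2, Ccne2, E2f1 and Sox17 fall outside this rule and were named after their values were seen.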

Additional observations from a re-analysis of the deposited data

How the results depend on the processing

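No called value changed sign under the alternatives run, and the cause of the changes below was not tested unless fewer libraries explain them. In KO against WT, the 1 Hist gene called lower became 0 with limma-voom, the set alone, the replicate block and the GC correction with replicate block, 2 at a threshold of 0.1, and 0 to 2 with a library left out. The 1 replacement gene called higher became 0 with the GC correction, the GC correction with replicate block and every library left out. The 0 replacement genes called lower became 1 with DESeq2, with no filter and at a threshold of 0.1, and 0 to 1 with a library left out. The 42 Hist genes below 0 were 15 to 42 with a library left out, an alternative chosen after seeing the data, as was the same count above 0 in siTfap4 (32 to 42, and 39 with the GC correction). All called genes numbered 629 to 880 with a library left out, against 1506.

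In siTfap4 against siNeg, the 5 Hist genes called higher became 3 with library totals, no filter, the replicate block and the GC correction with replicate block, 2 with the GC correction, 12 at a threshold of 0.1, and 0 to 4 with a library left out. The 1 replacement gene called higher became 2 with DESeq2, 0 with the set alone, 3 at a threshold of 0.1, and 0 to 2 with a library left out, and the 3 called lower became 1 to 4. All called genes numbered 3528 at a threshold of 0.1 and 522 to 2961 with a library left out, against 2334. The replicate block also ended the calls of Hist1h1a (adjusted p = 0.0629), Hist1h2ak (0.06), Hist1h2bf (0.058), Znhit1 (0.0537) and Col1a1 (0.0758) and made that of H3f3b (0.0376); since the replicate numbers were not shown to pair the libraries, this is no measure of a weaker effect. How depth limits these calls was not tested.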
